A study of Rattus norvegicus with 48 samples.

Results

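Arntl, Per1, Per2, Dbp and Nr1d1, core and output genes of the circadian clock, were followed in the liver and the testis of rats dosed with a fungicide. The genes were chosen by name, as 5 of the 32545 Ensembl rat gene IDs of the count files: Arntl is ENSRNOG00000014448, Per1 is ENSRNOG00000007387, Per2 is ENSRNOG00000020254, Dbp is ENSRNOG00000021027 and Nr1d1 is ENSRNOG00000009329. The rule uses no measured value. No table at hand pairs these IDs with names, so the names could not be checked and none was contradicted. Adult male Sprague-Dawley rats of the Crl:CD (SD) stock, 8 to 10 weeks old at the start, were gavaged once a day for 14 days. The groups were vehicle (corn oil at 4 ml/kg, which every dosed rat also received) and 30, 150 or 400 mg/kg of myclobutanil, a fungicide of the triazole class. Polyadenylated RNA was sequenced from both tissues, with 6 libraries per dose and tissue and 48 in all. The labels state no time of day at which tissue was taken.

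The circadian clock is a transcriptional feedback loop that runs in most mammalian cells with a period of about a day. ARNTL (BMAL1) pairs with CLOCK and activates genes through E-box elements, among them Per1, Per2, Nr1d1 and Dbp; the PER proteins return to the nucleus and inhibit the pair, and NR1D1 (REV-ERB alpha) represses Arntl. DBP carries the rhythm to output genes through D-box elements. In rodent liver the transcripts of these genes swing with a large amplitude over the day, with Arntl in near antiphase to Nr1d1 and Dbp and with Per2 trailing them by some hours, while rhythms in mouse testis are known to be weak or absent.

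Depth over genes was 31.8 to 49.1 M reads in the liver libraries and 30.9 to 49.2 M in those of testis. All 5 genes passed the filter on low counts, among 13275 genes tested in liver and 17261 in testis. In liver, Arntl had 1375 to 2588 reads per library, Per1 127 to 1113, Per2 206 to 694, Nr1d1 85 to 2045 and Dbp 32 to 103. In testis, Per1 had 2533 to 4033 reads, Per2 480 to 957, Nr1d1 258 to 526, Dbp 154 to 482 and Arntl 135 to 259. Liver Dbp was thus the least deeply counted of the 10 gene and tissue combinations. The libraries fall into 3 sequencing sets, inferred from depth and mapping quality because no label names a batch: vehicle and 30 mg/kg make up the first, 150 and 400 mg/kg the second, while numbers 2408, 2414, 2415 and 2421, with a library of each dose in each tissue, form the third. Dose and set therefore cannot be told apart between the lower and the upper pair of groups, except through the third set. Where the set was used as a term in a fit, it separated only the first set from all other libraries. Its adjustment of 150 and 400 mg/kg against vehicle thus rests on numbers 2408 and 2414. A term keeping all 3 sets apart was not fitted. Numbers 2403 to 2426 in the titles are shared by the tissues, a liver and a testis library having each number. No label ties a number to an animal, so p-values rest on the spread between libraries, which may be partly technical. For testis 2407 and 2408 the labels conflict: title and dose (0 mg/kg) say vehicle, but the exposure entry says myclobutanil. Both were kept as vehicle. In bulk tissue, fewer cells of a type and less RNA per cell cannot be told apart.

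The proximal promoters of Arntl, Per2 and Nr1d1 are shown because, of the 5 genes, these have a window with a match to the motifs searched. The windows run from 250 bases before to 50 bases after the start of the gene in RefSeq on build GRCr8, and were matched by symbol, Arntl being listed there as Bmal1. All 5 symbols were found. Capitals mark every match, on either strand, to the motifs searched. These were the E-box CACGTG bound by CLOCK with ARNTL, its variant CACGTT, the D-box TTATGTAA or TTACGTAA bound by the DBP family, and AGGTCA, the core of the element bound by NR1D1 and the ROR receptors. The windows lie at chr1:176766078-176766377 on the plus strand for Arntl, chr9:99496944-99497243 on the minus strand for Per2, and chr10:84231763-84232062 and chr10:84229405-84229704 on the minus strand for Nr1d1, which has 2 windows; each is printed 5′ to 3′ on the strand of its gene.
Arntl: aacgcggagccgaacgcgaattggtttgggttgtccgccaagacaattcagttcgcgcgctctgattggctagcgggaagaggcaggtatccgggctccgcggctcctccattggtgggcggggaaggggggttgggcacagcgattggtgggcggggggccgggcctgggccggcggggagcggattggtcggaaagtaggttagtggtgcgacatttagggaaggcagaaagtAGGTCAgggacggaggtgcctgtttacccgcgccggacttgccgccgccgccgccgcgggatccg
Per2: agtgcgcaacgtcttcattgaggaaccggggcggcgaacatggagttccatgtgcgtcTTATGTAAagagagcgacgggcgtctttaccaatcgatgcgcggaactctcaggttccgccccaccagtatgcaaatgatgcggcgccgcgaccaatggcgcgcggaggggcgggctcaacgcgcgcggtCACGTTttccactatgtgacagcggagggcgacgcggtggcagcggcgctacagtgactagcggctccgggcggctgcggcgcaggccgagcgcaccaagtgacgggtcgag
Nr1d1 window 1: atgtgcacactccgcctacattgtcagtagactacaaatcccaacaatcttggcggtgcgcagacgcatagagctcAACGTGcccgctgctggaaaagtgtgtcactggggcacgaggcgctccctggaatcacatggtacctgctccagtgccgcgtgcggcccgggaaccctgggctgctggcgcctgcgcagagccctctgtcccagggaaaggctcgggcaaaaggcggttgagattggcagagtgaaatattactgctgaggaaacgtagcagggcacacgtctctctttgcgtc
Nr1d1 window 2: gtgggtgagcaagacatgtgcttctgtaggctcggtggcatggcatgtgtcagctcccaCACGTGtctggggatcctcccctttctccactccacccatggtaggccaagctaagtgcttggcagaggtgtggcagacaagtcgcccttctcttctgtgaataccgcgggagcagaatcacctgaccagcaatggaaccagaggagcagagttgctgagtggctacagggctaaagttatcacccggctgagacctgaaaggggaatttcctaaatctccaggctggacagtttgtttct

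The Arntl window held 1 match, an AGGTCA core whose first base lies at -15 from the start of the gene. The fuller ROR element, in which AGGTCA follows a pair of A or T bases, was not matched there. Per2 held the D-box TTATGTAA at -192 and CACGTT at -62. Nr1d1 held the reverse complement of CACGTT at -174 in window 1 and the E-box CACGTG at -191 in window 2. The windows of Per1 and Dbp, which are not printed, held no match to any of the 5 motifs. Over all 33469 windows, 6.42% held the E-box, 1.01% the D-box, 3.31% the ROR element, 16.2% an AGGTCA core and 4.83% CACGTT. The last 2 motifs were added to the search after the sequences had been seen, and every ROR element contains an AGGTCA core. A match describes the letters of these windows and nothing about binding.

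Without the fungicide, 3 of the 5 genes differed between the tissues. Arntl, the activator of the loop, was far higher in liver. Per1, a repressor, and Dbp, an output factor, were lower in liver, and Per2 and Nr1d1 could not be distinguished. Levels were set on 1 scale for this comparison, in CPM, read counts divided by the library's depth, with TMM scaling over all 48 libraries. Arntl had 60.2 ± 5.80 CPM in vehicle liver and 4.07 ± 0.211 CPM in vehicle testis (SD, n = 6 each), a log2 difference of 3.89 (SE 0.078, edgeR adjusted p = 5.87e-40). Per1 had 11.03 ± 8.72 CPM in vehicle liver and 71.4 ± 8.71 CPM in vehicle testis, a log2 difference of -2.70 (SE 0.33, edgeR adjusted p = 4.04e-10). Dbp had 2.39 ± 0.770 CPM in vehicle liver and 5.73 ± 0.525 CPM in vehicle testis, a log2 difference of -1.26 (SE 0.19, edgeR adjusted p = 4.45e-08). For each of these 3 genes the 6 liver and the 6 testis libraries did not overlap, which held for 87.3% of all genes.

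Per2 averaged 13.4 ± 4.02 CPM in vehicle liver and 13.3 ± 1.13 CPM in vehicle testis, a log2 difference of 0.02 with a 95% interval of -0.35 to 0.39 (edgeR adjusted p = 0.916). Nr1d1 averaged 10.9 ± 7.75 CPM in vehicle liver and 7.35 ± 0.404 CPM in vehicle testis (log2 difference 0.57, 95% interval -0.32 to 1.46, edgeR adjusted p = 0.213). The means hide a difference in spread: 3 liver libraries had more Nr1d1 than any testis library and the other 3 had less than any. Of the 5 genes 1 was called higher and 2 were called lower in liver, against 38.9% and 55.2% of 18221 genes; 94.1% of all genes were called in either direction, so a call here is the usual state of a gene. The median gene lay at a log2 difference of -0.74, or -0.94 with RLE size factors. Relative to that median, Arntl lay at 4.62, Nr1d1 at 1.30, Per2 at 0.76, Dbp at -0.52 and Per1 at -1.96. Size factors shift all genes by nearly the same amount, which subtracting the median removes, so RLE is no check on these values. Without that subtraction, Per2 was 0.02 with TMM and -0.18 with RLE size factors (SE 0.18, edgeR adjusted p = 0.334).

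Levels in the tissues at 30, 150 and 400 mg/kg are given as values and were not tested. On the scale of all 48 libraries, mean Arntl was 59.1, 56.1 and 57.5 CPM in liver at 30, 150 and 400 mg/kg, against 4.15, 3.98 and 4.12 CPM in testis. Liver Nr1d1 at 400 mg/kg ranged from 14.7 to 26.8 CPM, above the whole testis range of 7.38 to 8.79 CPM at that dose, whereas in the vehicle groups liver values of 4.88 to 24.99 CPM lay on both sides of testis values of 6.80 to 7.93 CPM.

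**Figure D1:**
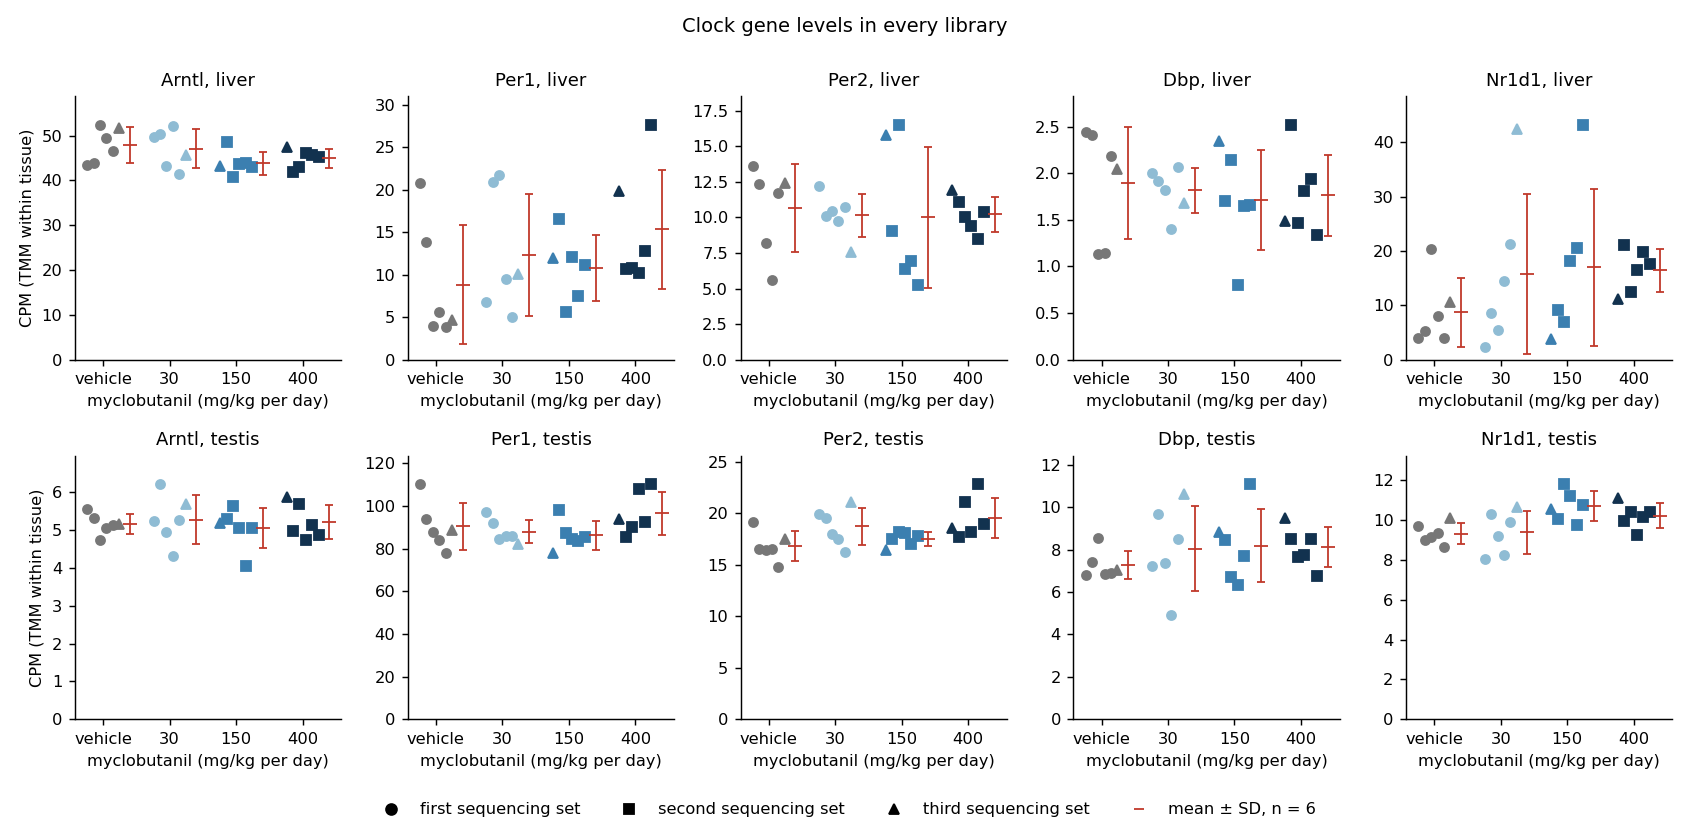
Level of each clock gene in every library, in CPM scaled by TMM within the tissue, with liver in the upper row and testis in the lower and dose in mg/kg per day from left to right; marker shapes give the inferred sequencing set, and red bars the mean ± SD of 6 libraries. Liver Nr1d1 spans 2.36 to 42.5 CPM within 30 mg/kg, while testis Nr1d1 stays between 8.05 and 11.8 CPM over all 24 libraries.

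In liver, none of the 5 genes had a called change at any dose, where a call means an adjusted p under 0.05 over all genes tested. At 30, 150 and 400 mg/kg against vehicle, 0 of 5 were called by edgeR, where 0.0151%, 1.49% and 19.6% of all genes were. From 150 to 400 mg/kg, again 0 of 5 were called, against 5% of all genes. DESeq2 and limma-voom also called 0 of 5 in each of these 4 comparisons. At an unadjusted p under 0.05 edgeR counted 1 member, Arntl at 150 mg/kg, and 0 in the other 3 comparisons, against 5.24%, 15.7%, 32.8% and 20.9% of all genes for 30, 150 and 400 mg/kg over vehicle and 400 over 150 mg/kg. No gene's groups were fully separated in any of the 4 comparisons, while this held for 0.271%, 1.94%, 8% and 2.49% of all genes in the same order. CPM values from here on are scaled by TMM within a tissue.

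Arntl, which encodes the activating partner of CLOCK, was the steadiest clock gene in liver. The lowest, median and highest of the 6 libraries were 43.4, 47.97 and 52.5 CPM in vehicle, 41.3, 47.7 and 52.3 CPM at 30 mg/kg, 40.8, 43.4 and 48.6 CPM at 150 mg/kg, and 41.9, 45.4 and 47.5 CPM at 400 mg/kg. The groups overlapped throughout, although all 6 libraries at 400 mg/kg lay below the vehicle mean. Mean Arntl was 44.9 ± 2.05 CPM at 400 mg/kg and 47.9 ± 3.93 CPM in vehicle (log2 fold change -0.09, SE 0.061, edgeR adjusted p = 0.300). At 150 mg/kg the log2 fold change was -0.13, with an edgeR p of 0.0459 before and 0.308 after adjustment.

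Per1, a light- and hormone-responsive repressor of the loop, differed several-fold between libraries of 1 group. Liver values ran from 3.86 through a median of 5.14 to 20.8 CPM in vehicle, from 5.02 through 9.76 to 21.7 CPM at 30 mg/kg, from 5.58 through 11.5 to 16.5 CPM at 150 mg/kg, and from 10.2 through 11.8 to 27.7 CPM at 400 mg/kg. In vehicle, 2403 and 2404 were high and the other 4 libraries lay at 5.65 CPM or less; at 400 mg/kg, 2421 and 2426 were high and the other 4 close together. All 6 libraries at 400 mg/kg exceeded the vehicle mean, but the highest vehicle library exceeded 5 of them. Mean Per1 was 15.3 ± 7.04 CPM at 400 mg/kg and 8.81 ± 7.004 CPM in vehicle (log2 fold change 0.80, 95% interval -0.12 to 1.72, edgeR adjusted p = 0.216). When each library was left out, the log2 fold change ranged from 0.55 to 1.26, and it was called in 1 of these fits, the one without vehicle 2403 (1.26, SE 0.42, edgeR adjusted p = 0.0443). With the inferred set as a term it was 1.39 (SE 0.72, edgeR adjusted p = 0.259), and without the third-set libraries 0.58 (SE 0.51, edgeR adjusted p = 0.493). At 150 mg/kg it was 0.30 (SE 0.44, edgeR adjusted p = 0.801), 0.88 (SE 0.70) with the set as a term and 0.76 without vehicle 2403.

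Per2, the other period gene measured, had nearly equal liver means at all doses and unequal spreads. The lowest, median and highest values were 5.63, 12.04 and 13.6 CPM in vehicle, 7.58, 10.3 and 12.2 CPM at 30 mg/kg, 5.25, 8.00 and 16.5 CPM at 150 mg/kg, and 8.50, 10.2 and 11.9 CPM at 400 mg/kg. The range at 400 mg/kg lay inside that of vehicle, and at 150 mg/kg 2415 and 2417 stood above and 2420 below all vehicle libraries. Mean Per2 was 10.2 ± 1.22 CPM at 400 mg/kg and 10.7 ± 3.08 CPM in vehicle (log2 fold change -0.06, 95% interval -0.57 to 0.44, edgeR adjusted p = 0.897).

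Nr1d1, the nuclear receptor that represses Arntl, was the most variable of the 5 in liver. In order of title number, the 6 vehicle libraries had 3.94, 5.32, 20.4, 8.00, 3.91 and 10.6 CPM, and those at 30 mg/kg 2.36, 8.66, 5.46, 14.4, 21.3 and 42.5 CPM. In the same order, the libraries at 150 mg/kg had 3.85, 9.05, 6.94, 18.2, 20.5 and 43.2 CPM and those at 400 mg/kg 11.2, 21.0, 12.5, 16.6, 19.7 and 17.5 CPM. The highest library exceeded the lowest 5.22-fold in vehicle, 18.0-fold at 30 mg/kg and 11.2-fold at 150 mg/kg, but 1.88-fold at 400 mg/kg. Mean Nr1d1 was 16.4 ± 3.91 CPM at 400 mg/kg and 8.70 ± 6.30 CPM in vehicle; all 6 libraries at 400 mg/kg exceeded the vehicle mean and 5 of them lay below the highest vehicle library. At 30 and at 150 mg/kg the 3 libraries with the higher title numbers each had more Nr1d1 than the 3 with the lower numbers, which did not hold in vehicle or at 400 mg/kg. This was noticed after the values were seen. The labels do not say what the numbers order, and the permutation tests given further on treat the libraries of a dose as exchangeable; a part of the numbering in the spread or the correlations was not tested.

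The log2 fold change of liver Nr1d1 over vehicle was 0.87 at 30 mg/kg, 0.97 at 150 mg/kg and 0.92 at 400 mg/kg, each with an SE of 0.60 and edgeR adjusted p-values of 0.976, 0.456 and 0.304. The SE uses an estimate of spread shared by all dose groups, although the SD of log2 CPM was 1.47 at 30 mg/kg and 0.36 at 400 mg/kg. Single libraries moved these fold changes without a call. Leaving out each in turn gave 0.27 (without 2414) to 1.31 (without vehicle 2405) at 30 mg/kg, 0.43 (without 2420) to 1.41 (without vehicle 2405) at 150 mg/kg, and 0.77 to 1.36 at 400 mg/kg. With the inferred set as a term, the values at 150 and 400 mg/kg turned to -0.18 (SE 0.86) and -0.23 (SE 0.86). That term separated only the first set from all other libraries, so it rests on 2408 and 2414. Of these, 2414 had the most Nr1d1 of its dose, 42.5 CPM. Apart from leaving out single libraries, the highest alternative value at 400 mg/kg was 1.18, and no alternative was called. Within the first set, 30 mg/kg over vehicle was 0.33 (SE 0.58). Within the second set, 400 over 150 mg/kg was -0.17 (SE 0.56), and neither value was called by edgeR (adjusted p = 0.995 and 0.908).

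Dbp, the D-box factor that drives output genes, was low in liver at every dose. The lowest, median and highest values were 1.13, 2.12 and 2.44 CPM in vehicle, 1.41, 1.87 and 2.07 CPM at 30 mg/kg, 0.797, 1.68 and 2.35 CPM at 150 mg/kg, and 1.34, 1.65 and 2.52 CPM at 400 mg/kg. Vehicle 2405 and 2406 and 150 mg/kg 2418 were low, and the groups overlapped. Mean Dbp was 1.76 ± 0.436 CPM at 400 mg/kg and 1.89 ± 0.602 CPM in vehicle (log2 fold change -0.11, 95% interval -0.56 to 0.35, edgeR adjusted p = 0.792).

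In testis, too, 0 of 5 genes were called by edgeR at 30, 150 and 400 mg/kg against vehicle or from 150 to 400 mg/kg, where 0.00579%, 0.0232%, 3.32% and 0.776% of all genes were. DESeq2 and limma-voom called 0 of 5 in these comparisons as well, except that each called 1, Per2, at 400 mg/kg against vehicle. At 30 mg/kg DESeq2 gave no adjusted p for Arntl, Dbp and Nr1d1, so its count there covers only Per1 and Per2. At an unadjusted p under 0.05 edgeR counted 1, 1, 1 and 2 of the 5 in that order, against 10.5%, 6.26%, 19.7% and 14.6% of all genes. No gene's groups were fully separated, as against 0.782%, 0.255%, 3.11% and 0.991% of all genes.

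Per2 came nearest to a call. Testis Per2 had a lowest, median and highest value of 14.8, 16.5 and 19.1 CPM in vehicle, 16.2, 18.8 and 21.1 CPM at 30 mg/kg, 16.4, 17.7 and 18.2 CPM at 150 mg/kg, and 17.7, 18.7 and 22.8 CPM at 400 mg/kg. All 6 libraries at 400 mg/kg exceeded the vehicle mean and 2 of them, 2423 and 2425, exceeded every vehicle library. Mean Per2 was 19.5 ± 1.97 CPM at 400 mg/kg and 16.8 ± 1.43 CPM in vehicle, a log2 fold change of 0.22 (SE 0.069) with an edgeR p of 0.00419 before and 0.075 after adjustment. The adjusted p crossed the threshold with DESeq2 (0.0343), with limma-voom (0.0438), with edgeR without vehicle 2403 (0.0409) and with edgeR without 400 mg/kg 2422 (0.0484). When each library was left out in turn, the log2 fold change ranged from 0.17 to 0.26 and the edgeR adjusted p from 0.0409 to 0.167. With the inferred set as a term the log2 fold change was 0.10 (SE 0.10, edgeR adjusted p = 0.775). Within the second set, 400 over 150 mg/kg was 0.16 (SE 0.075), with an edgeR p of 0.0491 before and 0.456 after adjustment. Within the first set, 30 mg/kg over vehicle was 0.13 (SE 0.075, edgeR adjusted p = 0.692).

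Testis Nr1d1 sat a little above vehicle at the upper doses without being called. Values ran from 8.65 to 10.1 CPM in vehicle, 8.05 to 10.6 CPM at 30 mg/kg, 9.78 to 11.8 CPM at 150 mg/kg, and 9.27 to 11.1 CPM at 400 mg/kg. In both upper groups 4 of 6 libraries exceeded every vehicle library. The log2 fold change was 0.20 at 150 mg/kg (SE 0.069), with an edgeR p of 0.00866 before and 0.734 after adjustment. At 400 mg/kg it was 0.13 (SE 0.070, edgeR adjusted p = 0.291). With the inferred set as a term these were 0.05 (SE 0.097) and -0.01 (SE 0.097).

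Testis Per1, Dbp and Arntl were not called at 400 mg/kg either. Per1 averaged 96.7 ± 10.1 CPM at 400 mg/kg and 90.5 ± 11.1 CPM in vehicle (log2 fold change 0.10, edgeR adjusted p = 0.493), with 78.2 to 98.4 CPM at 150 mg/kg and 82.2 to 97.2 CPM at 30 mg/kg. Dbp averaged 8.12 ± 0.948 CPM at 400 mg/kg and 7.26 ± 0.660 CPM in vehicle (log2 fold change 0.16, 95% interval -0.13 to 0.45, edgeR adjusted p = 0.561). Dbp had log2 fold changes of 0.15 at 30 mg/kg and 0.17 at 150 mg/kg (SE 0.14 each), also not called. Its widest group was 30 mg/kg, from 4.91 CPM in 2412 to 10.6 CPM in 2414. Arntl averaged 5.21 ± 0.456 CPM at 400 mg/kg and 5.16 ± 0.275 CPM in vehicle (log2 fold change 0.01, 95% interval -0.16 to 0.19, edgeR adjusted p = 0.950). From 150 to 400 mg/kg, Per1 had a log2 fold change of 0.17 and Per2 of 0.16, with edgeR p-values of 0.0298 and 0.0287 before and 0.283 and 0.278 after adjustment.

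**Figure D2:**
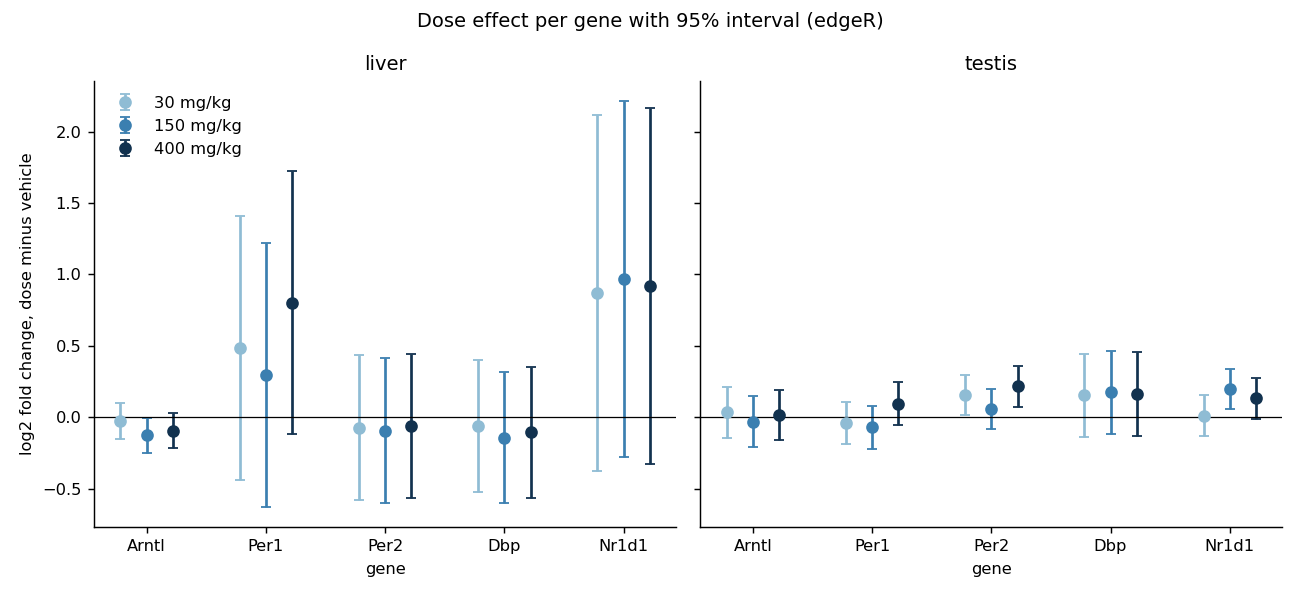
Log2 fold change of each clock gene over vehicle at 30, 150 and 400 mg/kg, with liver on the left and testis on the right; points are edgeR estimates from 24 libraries per tissue and bars 95% intervals. The liver interval of Nr1d1 at 400 mg/kg reaches from -0.33 to 2.16, while that of testis Per2 at 400 mg/kg reaches from 0.07 to 0.36 and is not adjusted for the number of genes.

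Whether the top dose acted differently on the clock genes of the 2 tissues was tested as the effect of 400 mg/kg in liver minus that in testis, in 1 fit of 48 libraries. The difference was 0.81 for Nr1d1 (95% interval -0.43 to 2.05), 0.74 for Per1 (-0.15 to 1.62), -0.26 for Per2 (-0.78 to 0.26), -0.25 for Dbp (-0.79 to 0.29) and -0.09 for Arntl (-0.29 to 0.12). By edgeR 0 of 5 were called (adjusted p from 0.369 to 0.744), against 8.36% of all genes; DESeq2 and limma-voom also called 0, and edgeR counted 0 of 5 at an unadjusted p under 0.05, against 20.2% of all genes. The intervals were widest for Nr1d1 and Per1, the genes with the widest spread between liver libraries.

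The clock genes differed in how far libraries of the same dose lay apart. This spread was measured as the SD of log2 CPM within dose groups, pooled over the 4 groups and set among the same value of every gene tested, as a description. In liver, Nr1d1 had an SD of 1.08, larger than 98.8% of genes and 158th from the largest of 13275. Per1 had 0.78 (larger than 97.3% of genes), Per2 0.45 (86.8%), Dbp 0.41 (84.3%) and Arntl 0.10 (16.5%), while the median gene had 0.19. In testis, Dbp had 0.26 (72.5%), Arntl 0.14 (44.0%), Per1 0.13 (41.4%), Per2 0.12 (35.7%) and Nr1d1 0.11 (32.9%), with a median gene at 0.16. Nr1d1 was thus the most variable of the 5 in liver and the least variable in testis. Arntl was the only one of the 5 with a smaller SD in liver than in testis. These SDs include counting noise, and Arntl had 1375 to 2588 reads per liver library but 135 to 259 per testis library. Whether Arntl varies less in liver beyond counting was not tested. Against genes with a mean of at least 5 CPM, where counting adds less, liver Nr1d1 exceeded 99.5%, Per1 99.1%, Per2 95.9% and Arntl 25.3% of 8637 such genes; liver Dbp averaged less than 5 CPM. In testis, Dbp exceeded 94.5% of 10719 genes, Arntl 69.4%, Per1 65.8%, Per2 57.1% and Nr1d1 52.7%.

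**Figure D3:**
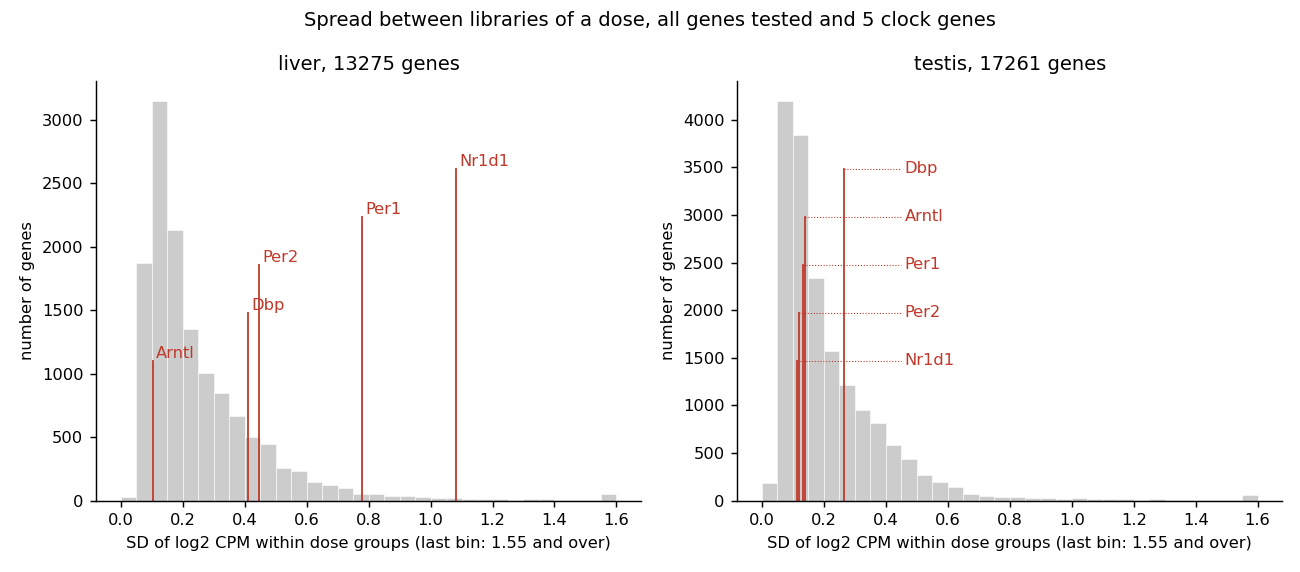
Number of genes by their SD of log2 CPM within dose groups, in liver on the left and testis on the right, with red lines at the 5 clock genes (line height has no meaning; the last bar collects all larger values). Liver Nr1d1 at 1.08 and Per1 at 0.78 lie in the right tail, and 4 of the 5 genes in testis lie between 0.11 and 0.14.

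The SD of log2 CPM of liver Nr1d1 was 0.92 in vehicle, 1.47 at 30 mg/kg, 1.246 at 150 mg/kg and 0.36 at 400 mg/kg. Liver Per2 had 0.49, 0.23, 0.69 and 0.17, and liver Per1 1.02, 0.85, 0.56 and 0.59, in the same order. The group at 400 mg/kg had the smallest SD of the 4 for Nr1d1, Per2 and Arntl in liver, but not for Per1 and Dbp. Differences between groups in spread were not tested.

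Within dose groups, the clock genes of 1 library moved together in a few pairs. For each of 10 gene pairs in each tissue, and for each gene across tissues, deviations of log2 CPM from the dose-group mean were correlated over 24 libraries, with a permutation test within dose groups and Benjamini-Hochberg adjustment over these 25 correlations. Of the 10 pairs in liver 2 passed, of the 10 in testis 1, and of the 5 genes across tissues 0.

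In liver, Per2 was low in the libraries where Nr1d1 was high. Pearson's r was -0.69 (permutation p = 0.00053, adjusted p = 0.0132) and Spearman's rho -0.67 (permutation p = 0.00163, adjusted p = 0.0136). At the ends of the range, 150 mg/kg 2420 had 5.25 CPM of Per2 with 43.2 of Nr1d1, whereas 150 mg/kg 2415 had 15.8 of Per2 with 3.85 of Nr1d1. These are the last and the first title number of that dose. There Per2, like Nr1d1, split by number, with 15.8, 9.05 and 16.5 CPM in 2415 to 2417 and 6.38, 6.95 and 5.25 CPM in 2418 to 2420. At the other doses Per2 did not split in this way. The correlation was -0.50 within the first set and -0.85 within the second, over 10 libraries each. Without the 2 libraries farthest from the median of Per2, 2406 and 2417, it was -0.79 (permutation p = 3e-05), and it ranged from -0.76 to -0.62 when each library was left out. Without the 4 third-set libraries it was -0.63, with a permutation p of 0.00526 before and 0.107 after adjustment.

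Also in liver, Per2 and Dbp were high and low in the same libraries. Pearson's r was 0.66 (permutation p = 0.00229, adjusted p = 0.0191) and rho 0.72 (permutation p = 0.00062, adjusted p = 0.0105). Within the first set r was 0.89 and within the second 0.46. Without 2406 and 2417 r was 0.56 (permutation p = 0.0545). The adjusted p came to lie above 0.05 without 2403, 2406, 2415 or 2417, at 0.0513, 0.075, 0.114 and 0.101. Vehicle 2406, with 5.63 CPM of Per2 and 1.15 of Dbp, and vehicle 2403, with 13.6 of Per2 and 2.44 of Dbp, are examples of a low and a high library; over the 24 libraries Per2 ran from 5.25 to 16.5 CPM and Dbp from 0.797 to 2.52 CPM.

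Nr1d1 and Dbp, which share activation through E-boxes, had an r of -0.40 in liver (permutation p = 0.0609, adjusted p = 0.254; rho -0.40, permutation p = 0.0587). Arntl and Dbp had -0.44 (permutation p = 0.0376, adjusted p = 0.188; rho -0.46, permutation p = 0.0297). Arntl and Nr1d1, repressed gene and repressor, had 0.06 (permutation p = 0.806; rho 0.13, permutation p = 0.604), and Per1 had between -0.23 and 0.07 with the other 4 genes. None of these passed the adjustment.

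In testis, Arntl and Nr1d1 moved in the same direction. Pearson's r was 0.68 (permutation p = 0.00142, adjusted p = 0.0177) and rho 0.68 (permutation p = 0.00084, adjusted p = 0.0105). It was 0.65 within the first set and 0.70 within the second. Without the 2 libraries farthest from the median of Arntl, 2419 and 2412, r was 0.57 (permutation p = 0.0185, adjusted p = 0.231), and without the third-set libraries 0.67 (permutation p = 0.00858, adjusted p = 0.107), and neither passed after adjustment. The deviations are small: over all doses testis Arntl ran from 4.05 to 6.21 CPM and Nr1d1 from 8.05 to 11.8 CPM. The liver pairs Per2 and Nr1d1, and Per2 and Dbp, had an r of 0.33 (permutation p = 0.164; rho 0.40, permutation p = 0.0825) and of 0.13 (permutation p = 0.593; rho -0.04, permutation p = 0.850) in testis. The difference between the tissues in these correlations was not tested.

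**Figure D4:**
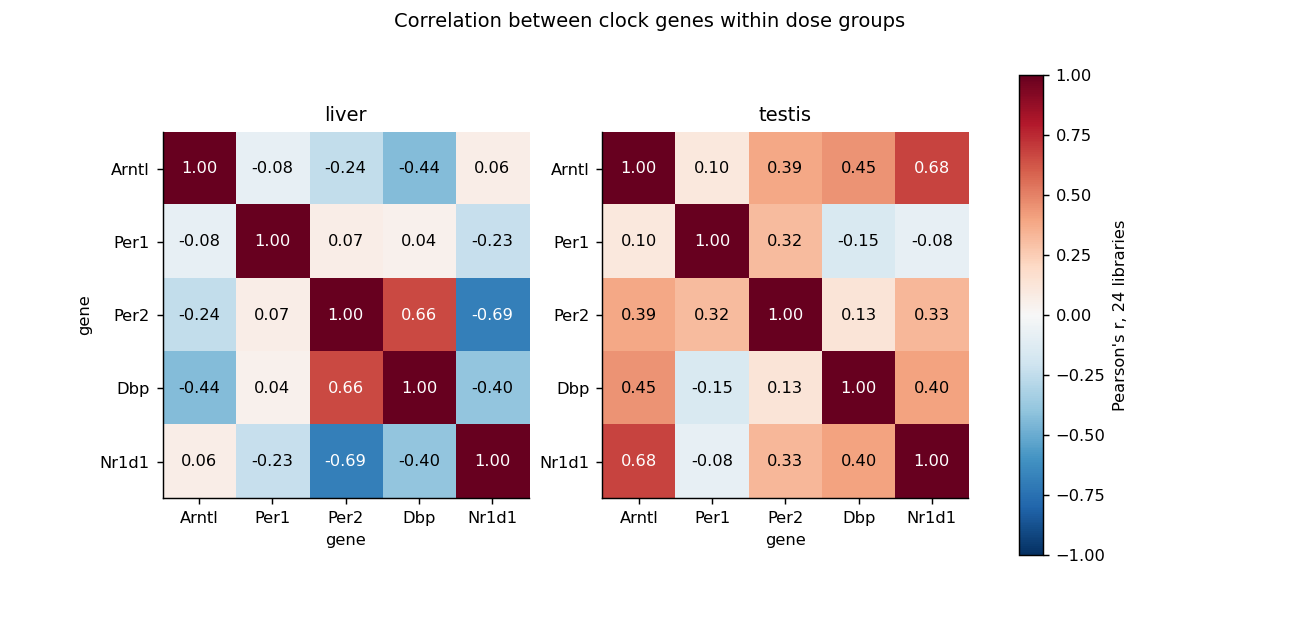
Pearson's r between the deviations of log2 CPM of each pair of clock genes from their dose-group means, over 24 liver libraries on the left and 24 testis libraries on the right, from -1 in blue to 1 in red. Per2 with Nr1d1 at -0.69 and Per2 with Dbp at 0.66 in liver, and Arntl with Nr1d1 at 0.68 in testis, are the 3 cells that passed the adjusted permutation test.

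Liver and testis libraries with the same title number were compared gene by gene. Per1 had an r of 0.50 (permutation p = 0.0262, adjusted p = 0.164) and a rho of 0.28 (permutation p = 0.215), with 0.58 within the first set and 0.55 within the second. Number 2403 had the most Per1 of the vehicle group in both tissues, at 20.8 CPM in liver and 110.3 CPM in testis; likewise 2416 at 150 mg/kg and 2426 at 400 mg/kg were highest in both, but at 30 mg/kg the highest was 2411 in liver and 2409 in testis. The highest Per1 thus shared its number at 3 of 4 doses and the lowest at 1 of 4. For Dbp the lowest did so at 3 of 4 and the highest at 0 of 4. For the lowest and the highest in turn, the counts were 2 and 1 of 4 for Nr1d1, 0 and 2 for Per2, and 0 and 1 for Arntl. These counts were not compared with other genes or with chance. Without 2403 and 2411, the farthest from the median in liver, r was 0.39 (permutation p = 0.0888), and leaving out single numbers gave 0.31 to 0.58, the highest without 2409 (adjusted p = 0.0400).

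The other 4 genes had a smaller r. Nr1d1 had an r of 0.29 (permutation p = 0.279; rho 0.21, permutation p = 0.390), Dbp 0.23 (permutation p = 0.257; rho 0.17, permutation p = 0.420), Per2 -0.12 (permutation p = 0.501; rho -0.10, permutation p = 0.619) and Arntl -0.18 (permutation p = 0.447; rho -0.23, permutation p = 0.292). Within the first and the second set r was 0.35 and -0.24 for Nr1d1, 0.14 and 0.47 for Dbp, 0.21 and -0.08 for Per2, and -0.30 and -0.20 for Arntl. As a description, the same r over 10183 genes with a mean CPM of at least 1 in both tissues had a median of 0.0485. Per1 stood above 95.3% of these genes, Nr1d1 above 82.6%, Dbp above 75.8%, Per2 above 26.0% and Arntl above 18.3%.

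**Figure D5:**
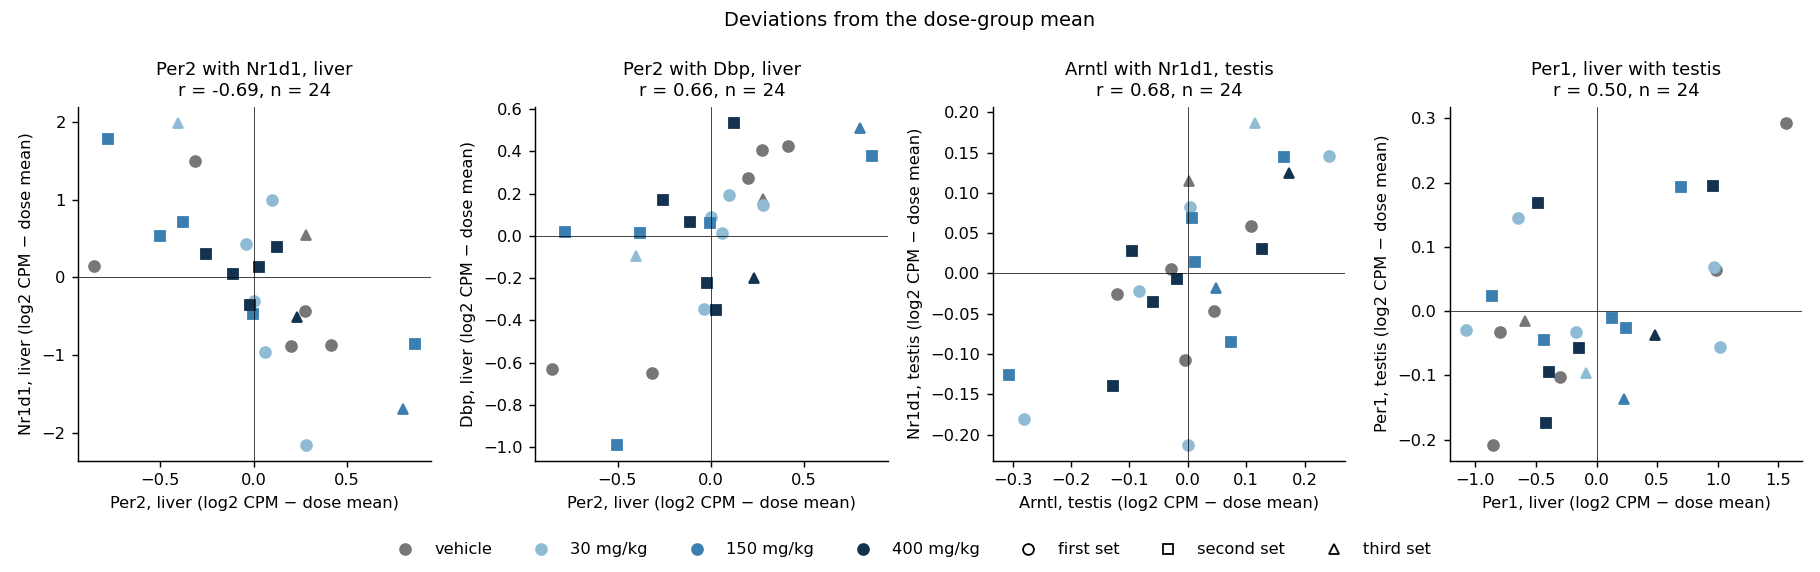
Deviations of log2 CPM from the dose-group mean in 24 libraries, for the 3 pairs that passed the adjusted permutation test and for Per1 in liver against testis libraries of the same number; colours give the dose and marker shapes the inferred sequencing set. Liver Per2 with Nr1d1 slopes down at r = -0.69, and the panel of Per1 has its upper right point in vehicle 2403.

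Among all genes with a mean of at least 1 CPM, the pairs that passed the test stood toward the ends of each other's ranking by r within dose groups. The ranking is a description over 24 libraries that share their depth and set. It uses the same r by which the pairs passed, so a place toward an end adds no further evidence for them. Of 11351 liver genes, Per2 was the 12th lowest for Nr1d1 and Nr1d1 the 74th lowest for Per2; Per2 was the 23rd highest for Dbp and Dbp the 52nd highest for Per2. Of 14612 testis genes, Arntl was the 41st highest for Nr1d1 and Nr1d1 the 229th highest for Arntl. The liver genes with the highest r to Nr1d1 were ENSRNOG00000046912 at 0.88 and ENSRNOG00000004549 at 0.80, and those with the lowest were ENSRNOG00000006622 at -0.94 and ENSRNOG00000003649 at -0.80. These IDs could not be paired with names. Arntl and Nr1d1 in liver, by contrast, were in the middle of each other's ranking: Arntl was 4843rd from the highest for Nr1d1.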

How the data were processed

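Liver and testis RNA was sequenced as 48 stranded, polyA-selected libraries, 6 per dose and tissue. Raw counts of reads per Ensembl gene ID were deposited, in a file for each library, without normalisation by the authors. CASAVA 1.8, HISAT2 and HTSeq 0.6.1 are named in the submitters' processing notes; genome build and strand setting were not found there (not given in the sources used here), so reads of overlapping antisense genes may not be told apart. The 5 lines per file that belong to no gene were left out; they held 39.8% to 46.1% of a liver library and 34.9% to 36.9% of a testis library. Groups came from titles and dose labels.

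Tests were run over all genes and only the clock genes are printed. Per tissue, edgeR 4.0.16 in R 4.3.3 was fitted to 24 libraries (filterByExpr, TMM, robust quasi-likelihood, 1 mean per dose, 2-sided, Benjamini-Hochberg over all genes tested). Both tissues were fitted together, with 48 libraries, for the differences between tissues. Correlations used log2 CPM with a prior count of 2, as deviations from dose-group means, with 100000 permutations within dose groups (smallest p 1e-05). Likeness and spread are descriptions. The fits were checked on simulated counts with the same spread beyond counting for every gene, and the correlation test on simulated normal values. Neither simulation was set to the spread of liver Nr1d1 or Per1. Depth limits low genes: liver Dbp rests on 32 to 103 reads per library.

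The 5 genes, and the wider clock list and tissue markers that were to go with them, were chosen with earlier results of these data known. The lists are by symbol and 0 of 32545 IDs matched through the reference table of 47357 genes, so neither could be applied, and tissue identity was not checked against markers. All 5 genes are named; other IDs are the 2 highest and 2 lowest in likeness to liver Nr1d1, a gene picked after its values were seen.

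Alternatives were DESeq2 1.42.0, RLE size factors, limma-voom (limma 3.58.1) with quality weights, other filters, only the 12 libraries compared, the inferred sequencing set as a term, the third set left out, testis 2407 and 2408 left out, each library left out and a block on the title number.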

Additional observations from a re-analysis of the deposited data

Results flagged for a closer look

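Of 40 groups of 6 libraries, 1 for each gene, tissue and dose, 2 had a library that stood apart by Dixon's criterion; chance gives about 1 in 20. Arntl in testis at 150 mg/kg was lowest in 2419, at 4.049 CPM, with the next library at 5.05 CPM. Dbp in testis vehicle was highest in 2405, at 8.527 CPM, with the next at 7.44 CPM. In liver, 0 groups were set apart in this way, the wide groups of Nr1d1 and Per1 included.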

How the results depend on the processing

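With the inferred sequencing set as a term, Nr1d1 changed sign in liver at 150 mg/kg (-0.18) and 400 mg/kg (-0.23), in testis at 400 mg/kg (-0.013) and in the effect of 400 mg/kg in liver minus testis (-0.25), and Dbp in testis at 150 mg/kg (-0.026) and 400 mg/kg (-0.038), all as log2 fold changes under their SE. That term separated only the first set from all other libraries. Per2 in vehicle liver minus testis was -0.18 with DESeq2. A further 48 of 1380 refitted fold changes changed sign while smaller than their SE in both fits and were given no direction. DESeq2 and limma-voom each called 1 gene, Per2, in testis at 400 mg/kg. Leaving out 1 library gave 0 to 1 calls at 400 mg/kg in liver and 0 to 1 in testis. Of 276 recounts of genes called, 271 were as reported, those without testis 2407 and 2408 among them.

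The 2 liver correlations fell to 0 without the third set, 1 in the first set, 0 in the second and 1 without the 2 farthest libraries, with 1 to 2 when single numbers, chosen as an alternative after seeing the data, were left out. The 1 testis correlation fell to 0 without the third set, in the second set, without the 2 farthest libraries and with dose differences included. In the first set 1 passed, Per1 with Per2 (r = 0.86, permutation, adjusted p = 0.0408). Across tissues, leaving out numbers gave 0 to 1. Sets hold 10 libraries each, so fewer calls there also follow from fewer libraries; the cause was not tested.

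Counts over all genes depended on the fit, and the set term again separated only the first set from all other libraries. At 400 mg/kg against vehicle, 2608 liver genes were called, or 936 with the set as a term; in testis 573 were, or 1 with the set as a term, 181 without the third set, 242 without 2407 and 2408, 1123 with DESeq2 and 1138 with limma-voom. From 150 to 400 mg/kg the range was 288 to 1058 around 664 in liver and 1 to 400 around 134 in testis. At 150 mg/kg it was 107 to 494 around 198 in liver and 0 to 16 around 4 in testis, and at 30 mg/kg 2 to 23 around 2 and 0 to 117 around 1. The effect of 400 mg/kg in liver minus testis was called for 1524 genes, or 479 with the set as a term.

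Same-numbered liver and testis libraries deviated together over 10183 genes with a median r of 0.181 (0.0967 to 0.252), over 0.1 for 23 of 24 numbers, and 23 of 24 numbers correlated best with themselves, a hint from the data and not from the labels. A replicate block on the title number left 0 of 5 genes called for the effect of 400 mg/kg in liver minus testis, and 3 of 5 for vehicle liver minus testis; over all genes it called 1240 in place of 1524. DESeq2 gave no adjusted p for Arntl, Dbp and Nr1d1 in testis at 30 mg/kg.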
